A study of Homo sapiens with 18 samples.

Results

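The genes described here are 10 markers of the intestinal stem cell, LGR5, ASCL2, OLFM4, SMOC2, PROM1, CD44, EPHB2, EPHB3, SOX9 and MYB, followed in BRAF-mutant colorectal cancer cells grown with a RAF inhibitor. Members were chosen by name: every probe of the deposited non-normalized table whose platform gene symbol was 1 of these 10. Of the 47323 probes in the table, 12 belonged to 9 of the genes, of 20044 genes with a named probe in all. CD44 had 3 probes, OLFM4 had 2 and the others had 1 each. EPHB2 had no named probe and was not analysed here.

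HT29 and Colo-205, established lines from human colorectal cancers, were grown as 3D cultures in Matrigel, a basement membrane gel. The medium held 3 µM PLX4720, an inhibitor of the RAF kinases, or its solvent DMSO from culture day 5 onwards. Biotin-labelled cRNA from total RNA was hybridised to Illumina BeadChips. HT29 had 2 biological replicates in each of 6 groups, PLX4720 and DMSO at days 1, 3 and 8, and Colo-205 had 1 array in each of 6 groups, PLX4720 and DMSO at days 1, 3 and 10. The labels do not state whether these days count from the start of treatment. All groups of a line shared the gel, the serum-containing medium and the line's mutations, HT29 was kept in DMEM and Colo-205 in RPMI medium, and each line lay on a BeadChip of its own. Levels of the lines can therefore not be told apart from the BeadChip, whereas each BeadChip held both treatments.

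Stem cells at the base of the intestinal crypt divide under Wnt signals, and R-spondins strengthen these signals by binding LGR5 and its relatives. ASCL2 is a basic helix-loop-helix factor that sets stem cell identity downstream of Wnt, and SOX9 and MYB are transcription factors of crypt progenitors. OLFM4 and SMOC2 are secreted glycoproteins found at the crypt base, and PROM1 (prominin) and CD44 (the hyaluronan receptor) are surface proteins used to sort stem-like tumour cells. EPHB2 and EPHB3 are receptor tyrosine kinases that keep cells in place along the crypt by sensing ephrins.

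Promoters are shown for OLFM4 and SMOC2, the markers with the widest treatment gaps in Colo-205, and for PROM1, that with the widest in HT29, as the 250 bases before the annotated start in RefSeq, GRCh38.p14, 5' to 3' on the gene's strand, with capitals for motif matches. PROM1 has 4 annotated starts and the 1 farthest upstream is shown.
OLFM4 promoter, chr13:53028563-53028812 (plus strand): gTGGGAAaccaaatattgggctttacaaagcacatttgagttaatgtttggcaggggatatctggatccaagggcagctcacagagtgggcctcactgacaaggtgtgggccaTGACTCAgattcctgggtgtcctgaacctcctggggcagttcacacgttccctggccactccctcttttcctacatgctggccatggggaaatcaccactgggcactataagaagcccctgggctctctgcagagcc
SMOC2 promoter, chr6:168440934-168441183 (plus strand): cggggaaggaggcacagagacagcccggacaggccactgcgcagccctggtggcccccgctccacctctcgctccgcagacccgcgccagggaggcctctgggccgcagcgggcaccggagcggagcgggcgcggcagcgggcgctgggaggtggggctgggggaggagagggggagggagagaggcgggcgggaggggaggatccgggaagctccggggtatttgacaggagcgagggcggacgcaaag
PROM1 promoter, chr4:16084024-16084273 (minus strand): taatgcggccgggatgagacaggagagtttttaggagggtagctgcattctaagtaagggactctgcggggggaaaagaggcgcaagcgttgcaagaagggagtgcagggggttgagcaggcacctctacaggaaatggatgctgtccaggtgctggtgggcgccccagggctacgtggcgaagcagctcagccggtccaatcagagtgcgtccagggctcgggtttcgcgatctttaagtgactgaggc

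These windows were searched on both strands for TCF/LEF (CTTTGA), AP-1 (TGANTCA), ETS (CCGGAA), RBPJ (TGGGAA) and CDX (TTTATG), motifs of factors that act at the end of the Wnt, RAF-ERK and Notch pathways or in gut identity. The OLFM4 window held an AP-1 and an RBPJ match, the SMOC2 window held none of the 5 motifs, and neither did the PROM1 window shown. Of the other PROM1 starts, the second had a CDX match and the fourth had TCF/LEF, AP-1 and CDX matches. Over all 35114 RefSeq promoter windows of this length, 6.57% held the AP-1 letters, 20.8% the RBPJ letters, 11.2% the TCF/LEF letters, 14.5% the ETS letters and 9.64% the CDX letters. Of the 10 genes, 7 had 11 windows in all. A match is a description of the letters and not a bound site.

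Values are log2 intensities after background correction and quantile normalization over the 18 arrays, so a difference of 1 is 2-fold. A probe counted as above background where its deposited detection p was under 0.01, and 18143 to 19606 probes of an array were. Where a group had no array above background, each of its arrays was given a floor. The floor was the measured value or the lowest level above background on that array, whichever was higher. Folds against a floor are no strict limit, since a value not above background can lie higher. An OLFM4 probe was at 5.54 and not above background on an HT29 DMSO array of day 1. Replicate arrays of HT29 correlated at 0.986 to 0.991, and the SD of their difference over genes was 0.3 to 0.383. A level is compared within a probe only, never between genes. A gene was tested where its probe was above background on at least 2 arrays of the fit, with limma and Benjamini-Hochberg adjustment over all genes (two-sided, threshold 0.05). By this filter 7 of the 10 markers were tested among 12675 genes in HT29 and 9 among 11575 genes in Colo-205.

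In HT29 the markers fell into 3 sets. PROM1, ASCL2 and MYB were higher with PLX4720 at days 1 and 3. CD44 and SOX9 were bright on every array and did not pass the test between treatments in the main fit. LGR5 and EPHB3 lay close to background, and SMOC2 and OLFM4 at it. With PLX4720, 3 of the 7 tested markers were higher and 0 lower at day 1, where 11.8% of all genes tested were higher and 10.8% lower. At day 3 the same 3 markers of 7 were higher and 0 lower, against 8.95% higher and 7.53% lower of all genes. At day 8 only PROM1 passed, against 7.34% higher and 8.62% lower of all genes. The median change of the 7 tested markers was 0.08, 0.38 and 0.20 on the log2 scale at days 1, 3 and 8, and that of all genes 0.0044, 0.006 and 0.0092. In bulk RNA, a change in the number of cells of a type and a change in RNA per cell cannot be told apart.

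PROM1 showed the widest treatment gap of the markers in HT29. Its log2 level was 9.78 and 9.94 with PLX4720 at day 1, against 7.24 and 7.51 with DMSO. At day 3 it was 11.12 and 10.92 with PLX4720, against 8.76 and 8.90 with DMSO. At day 8 it was 11.58 and 11.74 with PLX4720, against 10.53 and 10.78 with DMSO. The treatments did not overlap at any day, and the gap was narrowest at day 8, where the DMSO cultures had come up. The difference between PLX4720 and DMSO was 2.49 ± 0.15 (log2, SE, n = 2 arrays a group, as for the other single days) at day 1, with a limma adjusted p of 2.2e-05. It was 2.19 at day 3 (adjusted p = 5.69e-05) and 1.00 at day 8 (adjusted p = 0.00219). The rise at day 8 was thus 2.00-fold, against 5.60-fold at day 1.

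ASCL2, the Wnt-driven stem cell factor, followed the same course. Its log2 level was 10.21 and 10.56 with PLX4720 at day 1, against 8.19 and 8.00 with DMSO. At day 3 it was 10.94 and 11.10 with PLX4720, against 8.95 and 9.17 with DMSO. At day 8 it was 11.07 and 11.22 with PLX4720, against 10.63 and 10.73 with DMSO. The PLX4720 arrays lay above the DMSO arrays at every day, but at day 8 by less than 1 log2 unit. The difference was 2.29 ± 0.16 at day 1 (limma adjusted p = 3.36e-05) and 1.96 at day 3 (adjusted p = 0.000119). At day 8 it was 0.47 and did not pass the test (adjusted p = 0.073). With 4 of the alternative settings it did pass.

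MYB, needed in mouse crypts for progenitor division, moved the same way by less. Its log2 level was 10.11 and 10.03 with PLX4720 at day 1, against 9.31 and 9.41 with DMSO. At day 3 it was 10.48 and 10.43 with PLX4720, against 9.64 and 9.83 with DMSO. At day 8 it was 10.65 and 10.60 with PLX4720, against 10.62 and 10.29 with DMSO. The groups were apart at days 1 and 3 and overlapped at day 8. The difference was 0.71 ± 0.14 at day 1 (limma adjusted p = 0.00616) and 0.72 at day 3 (adjusted p = 0.00835), and 0.17 at day 8 (adjusted p = 0.449). The day 3 call was lost without replicate 1 of the day 3 DMSO cultures (0.62, adjusted p = 0.069) or of the day 3 PLX4720 cultures (0.70, adjusted p = 0.0536).

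**Figure D1:**
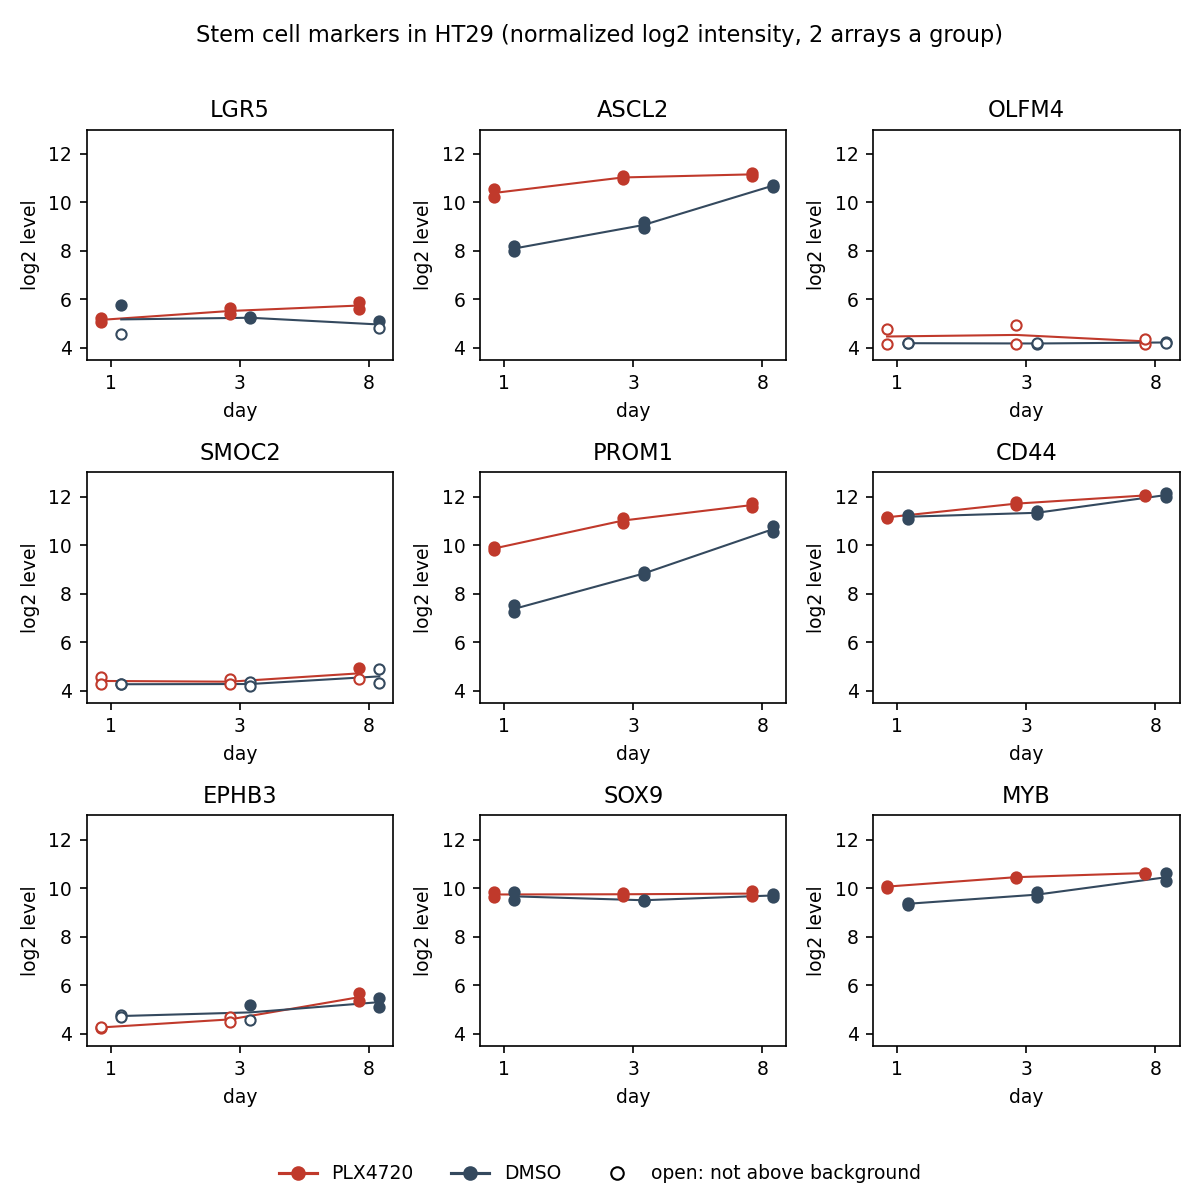
Normalized log2 intensity (y axis, 3.5 to 13 in each panel) of 9 markers in HT29 at days 1, 3 and 8 (x axis, evenly spaced). Each point is 1 array, lines join the means of 2 arrays, and open points are not above background. PLX4720 lies above DMSO for ASCL2 and PROM1 at each day, with the gap narrowing at day 8, and OLFM4 has open points only.

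Averaged over the 3 days, PROM1 was higher by 1.89 ± 0.09 (limma adjusted p = 1.34e-06), ASCL2 by 1.57 ± 0.09 (adjusted p = 4.16e-06) and MYB by 0.53 ± 0.08 (adjusted p = 0.000967), with 6 arrays a treatment. These were 3 of 7 markers higher and 0 lower, where 16.9% of all genes tested were higher and 16% lower. Both the PROM1 and the ASCL2 difference kept their call in each of 12 fits that left out 1 array, at 1.85 to 1.94 for PROM1 and 1.51 to 1.63 for ASCL2.

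The treatment effect itself was smaller at day 8 than at day 1 for ASCL2 and PROM1. The difference of the effects, day 8 minus day 1, was -1.82 ± 0.22 for ASCL2 (limma adjusted p = 0.000997) and -1.49 ± 0.21 for PROM1 (adjusted p = 0.00222). These were 2 of 7 markers lower and 0 higher, where the effect was lower at day 8 for 8.91% of all genes and higher for 7.05%. The effect at day 8 was also below that at day 3 for both genes, by -1.49 ± 0.22 for ASCL2 (adjusted p = 0.00481) and -1.19 ± 0.21 for PROM1 (adjusted p = 0.0114). Here 4.92% of all genes were lower and 3.54% higher. The PROM1 difference between days 8 and 3 was lost without replicate 1 of the day 3 DMSO cultures (-1.12, adjusted p = 0.0529) or replicate 1 of the day 8 PLX4720 cultures (-1.11, adjusted p = 0.0522). For MYB the day 8 minus day 1 difference was -0.53 ± 0.19 and did not pass (adjusted p = 0.0976). Its day 8 minus day 3 difference was -0.55 ± 0.19 and did not pass either (adjusted p = 0.117). Each passed with 3 of the 10 alternative settings.

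Both the DMSO and the PLX4720 cultures gained these transcripts with time. In DMSO cultures, 4 of the 7 tested markers were higher at day 8 than at day 1 and 0 lower, where 22% of all genes were higher and 20.4% lower. PROM1 was higher by 3.28 (limma adjusted p = 9.06e-07), ASCL2 by 2.59 (adjusted p = 3.98e-06), MYB by 1.09 (adjusted p = 0.000254) and CD44 by 0.89 (adjusted p = 0.000346). The median of the 7 was 0.89, and that of all genes 0.0175. PROM1 and ASCL2 thus stood higher at day 8 with DMSO (10.53 and 10.78, and 10.63 and 10.73) than at day 1 with PLX4720 (9.78 and 9.94, and 10.21 and 10.56), a comparison given by values only.

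In PLX4720 cultures, 5 of the 7 tested markers were higher at day 8 than at day 1 and 0 lower, where 8.62% of all genes were higher and 7.5% lower. PROM1 was higher by 1.79 (limma adjusted p = 0.00011), CD44 by 0.90 (adjusted p = 0.0012), ASCL2 by 0.77 (adjusted p = 0.0102) and MYB by 0.56 (adjusted p = 0.0233). EPHB3 was the fifth, at day 8 2.00-fold above the floor of day 1, where neither array was above background (adjusted p = 0.00476). It passed the filter only through day 8 arrays, so its rise was built in. Neither its p nor its place among the 5 is support for a rise. The ASCL2 call was lost without replicate 1 of PLX4720 at day 1 (adjusted p = 0.0594) or replicate 2 of PLX4720 at day 8 (adjusted p = 0.0798). The MYB call held in 8 of 12 fits that left out 1 array, with adjusted p up to 0.114, and was lost with median scaling (0.48, adjusted p = 0.0579).

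CD44, by its brightest probe, overlapped between treatments at days 1 and 8. Its log2 level was 11.18 and 11.13 with PLX4720 at day 1, against 11.10 and 11.25 with DMSO. At day 3 it was 11.66 and 11.78 with PLX4720, against 11.28 and 11.39 with DMSO. At day 8 it was 12.08 and 12.02 with PLX4720, against 12.15 and 11.99 with DMSO. The groups were apart at day 3, where the difference of 0.38 did not pass (limma adjusted p = 0.0601). With 5 of the 10 alternative settings it did. The second probe differed by -0.13, 0.39 and 0.11 at days 1, 3 and 8. The third, near background, lay with PLX4720 1.99-fold above the DMSO floor at day 3, where neither DMSO array was above background. It differed by -0.07 at day 8.

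SOX9, a factor of crypt base and Paneth cells, varied little in HT29. Its log2 level ran from 9.48 to 9.89 over all 12 arrays, and the mean difference between PLX4720 and DMSO was 0.13 (limma adjusted p = 0.28). Its difference between days 8 and 1 was 0.04 in both treatments.

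LGR5, the R-spondin receptor and namesake stem cell marker, was near background and was detected on 10 of 12 HT29 arrays. Its log2 level was 5.23 and 5.07 with PLX4720 at day 1, against 5.78 and 4.55 with DMSO. At day 3 it was 5.38 and 5.65 with PLX4720, against 5.21 and 5.26 with DMSO. At day 8 it was 5.61 and 5.87 with PLX4720, against 5.09 and 4.83 with DMSO. The groups were apart at days 3 and 8, and the replicates with DMSO at day 1 were farther apart than the treatment means of any day. The difference at day 8, 0.78 ± 0.32, did not pass (limma adjusted p = 0.142). It passed without either DMSO array of day 1 (adjusted p = 0.0127 and 0.0128), arrays that do not enter the difference and only set the spread.

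EPHB3, the ephrin receptor, was above background in both treatments at day 8 only. Its log2 level there was 5.34 and 5.67 with PLX4720, against 5.11 and 5.49 with DMSO, and the groups overlapped. At day 1 all 4 arrays were at background, and at day 3 only 1 DMSO array was above it. No treatment difference of EPHB3 passed in HT29. It was 0.20 at day 8 (limma adjusted p = 0.587). At day 3 EPHB3 was 4.69 and 4.49 with PLX4720, against 5.18 and 4.58 with DMSO, and the groups overlapped. The fitted difference of -0.29 there (adjusted p = 0.407) rests on values at or near background. SMOC2 was above background on 1 of 12 HT29 arrays, a PLX4720 array of day 8, and neither OLFM4 probe on any. No fold is given for these, since both treatments were at background.

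In Colo-205 it was SMOC2 that passed the test, a gene at background in HT29, while PROM1, ASCL2 and MYB did not pass. OLFM4 had the widest gap between treatments but differed in size from day to day. The Colo-205 fit took the 3 days as replicates of the treatment effect, because each day had 1 array a treatment. Of the 9 tested markers, 1 was higher and 0 lower, where 0.613% of all genes were higher and 0.752% lower. The markers' median was 0.22 and that of all genes 0.0216. OLFM4 entered the test through PLX4720 arrays alone, and a gene that does so had to differ.

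SMOC2, a secreted calcium-binding matrix protein, had log2 levels of 10.49, 11.23 and 10.48 with PLX4720 at days 1, 3 and 10. With DMSO they were 7.76, 8.12 and 7.58. Every PLX4720 array lay above every DMSO array, and the gap hardly varied with time, at 6.65-fold, 8.66-fold and 7.48-fold on the 3 days. The mean difference was 2.92 ± 0.17 (limma adjusted p = 0.00831, n = 3 days). Without day 3 it was 2.82 and no longer passed (adjusted p = 0.117), and in that fit 0 genes of the array passed.

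OLFM4, a glycoprotein of the human crypt base, was at background with DMSO and above it with PLX4720 on each day. By its brighter probe the log2 level was 5.98, 7.91 and 11.65 with PLX4720 at days 1, 3 and 10. With DMSO it was 4.19, 4.56 and 4.37. The signal with PLX4720 was higher at each later day, and lay 2.70-fold, 10.03-fold and 140-fold above the floor of the DMSO arrays. The fitted mean over the 3 days was 4.14 ± 0.97 (limma adjusted p = 0.113), and 2.57 without day 10 (adjusted p = 0.00813). Because OLFM4 was admitted by its high group, neither p bears on whether it differed. The fitted value was 2.48 to 2.87 with the 3 other treatments of the background.

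The second OLFM4 probe was above background on 1 Colo-205 array, PLX4720 at day 10, at 6.55. The other 5 Colo-205 arrays were at background by this probe, so it gives no order of days 1 and 3. The probes differed in size at day 10, where PLX4720 lay 4.07-fold above the DMSO floor by the second, against 140-fold by the first.

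**Figure D2:**
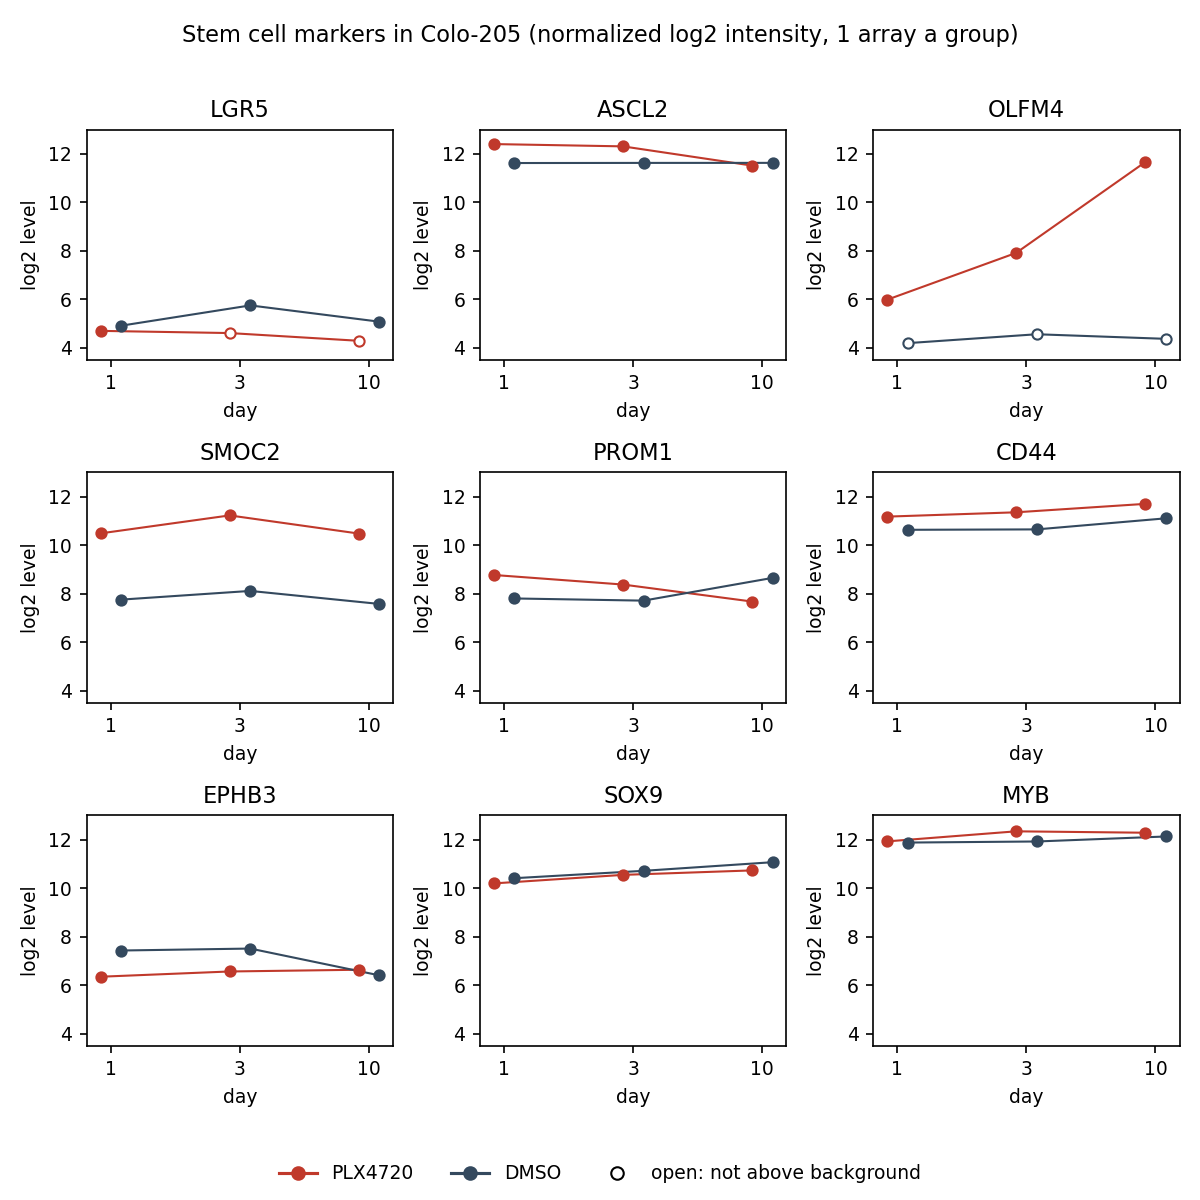
Normalized log2 intensity (y axis, 3.5 to 13 in each panel) of 9 markers in Colo-205 at days 1, 3 and 10 (x axis, evenly spaced), 1 array a point, with open points not above background. SMOC2 lies between 10.48 and 11.23 with PLX4720 and between 7.58 and 8.12 with DMSO, and OLFM4 reaches 11.65 with PLX4720 at day 10 while its DMSO points lie at background.

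PROM1 and ASCL2 in Colo-205 were higher with PLX4720 at days 1 and 3 and lower at day 10. ASCL2 had log2 levels of 12.40, 12.30 and 11.51 with PLX4720 at days 1, 3 and 10, and 11.62 with DMSO at each day. PROM1 had 8.77, 8.38 and 7.68 with PLX4720, against 7.80, 7.72 and 8.65 with DMSO. The day 10 differences were -0.11 for ASCL2 and -0.97 for PROM1, each from single arrays with no test. Their means over days, 0.45 ± 0.23 for ASCL2 (limma adjusted p = 0.373) and 0.22 ± 0.39 for PROM1 (adjusted p = 0.827), did not pass. MYB differed by 0.05, 0.42 and 0.16 at days 1, 3 and 10 (mean 0.21 ± 0.17, adjusted p = 0.588).

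CD44 in Colo-205 was higher with PLX4720 on each of the 3 days. Its brightest probe had log2 levels of 11.18, 11.36 and 11.71 with PLX4720, against 10.64, 10.65 and 11.11 with DMSO. The 0.61 ± 0.16 between them did not pass (limma adjusted p = 0.142), and with 4 of the alternative settings it did. The second probe differed by 0.46, 0.83 and 0.32 on the 3 days. The third was not above background with DMSO on any day. With PLX4720 it lay 1.35-fold and 1.81-fold above the DMSO floor at days 1 and 10, and both treatments were at background at day 3.

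LGR5, EPHB3 and SOX9 had lower values with PLX4720 on most Colo-205 days, and none passed. LGR5 was 4.69, 4.60 and 4.29 with PLX4720 at days 1, 3 and 10, against 4.91, 5.74 and 5.07 with DMSO. PLX4720 arrays of days 3 and 10 were at background, and the DMSO arrays lay 2.21-fold and 1.45-fold above their floor. EPHB3 was 6.35, 6.57 and 6.64 with PLX4720, against 7.43, 7.51 and 6.41 with DMSO. Its mean difference was -0.60 ± 0.29 (limma adjusted p = 0.355), and without day 10, where the sign turned, it was -1.01 and passed (adjusted p = 0.0335). SOX9 was 10.20, 10.55 and 10.74 with PLX4720, against 10.41, 10.72 and 11.07 with DMSO, lower on each of the 3 days by 0.17 to 0.34.

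**Figure D3:**
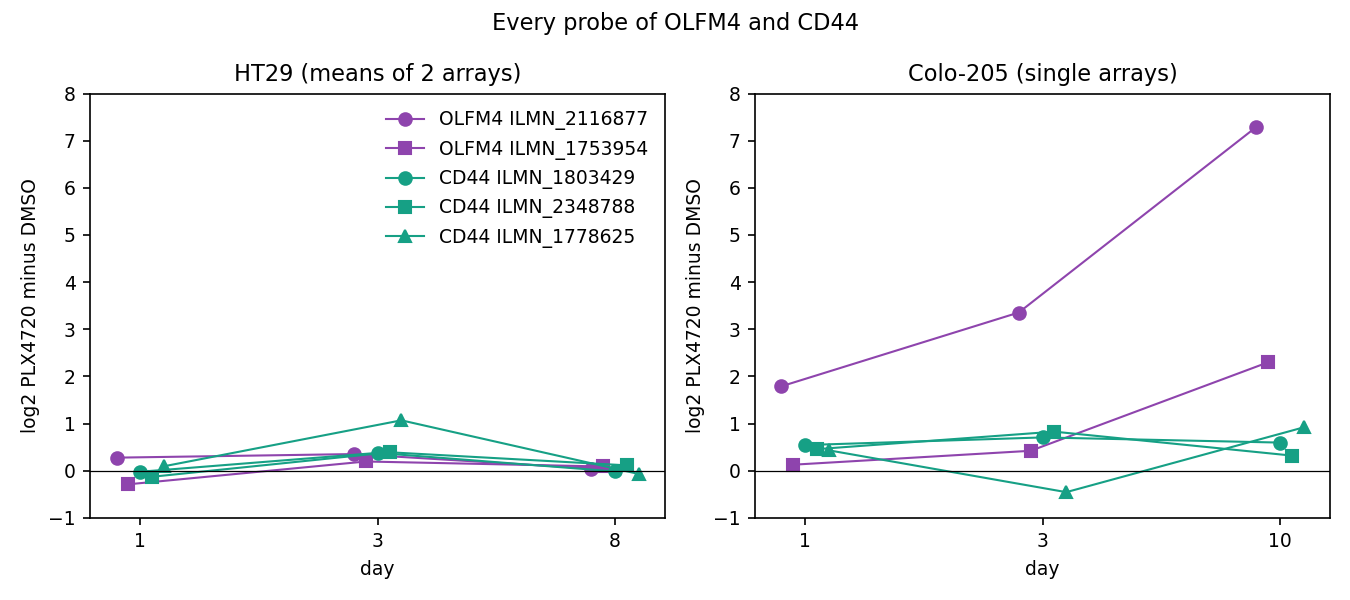
Log2 difference, PLX4720 minus DMSO (y axis), for every probe of OLFM4 and CD44 by day (x axis) in HT29, as means of 2 arrays, and in Colo-205, as single arrays. The 2 OLFM4 probes part at day 10 of Colo-205, and values of probes at background are shown as measured.

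The treatment effect differed between the lines for 3 of the 9 markers tested in 1 fit over the 18 arrays, HT29 minus Colo-205, with 1 higher and 2 lower. Of the 13659 genes in that fit, 2.43% were higher and 1.55% lower. One of the 2 lower, OLFM4, entered the fit only through the Colo-205 PLX4720 arrays and so had to differ; its fitted -3.92 ± 0.79 (limma adjusted p = 0.012), or -2.26 with days 1 and 3 only, supports nothing. The effect on SMOC2 was lower in HT29 by -2.80 ± 0.20 (adjusted p = 3.63e-06), where HT29 was at background on all but 1 array. With HT29 at background in both treatments, this difference restates the Colo-205 gap and is no measure of an HT29 effect. The effect on PROM1 was higher in HT29 by 1.67 ± 0.43 (adjusted p = 0.0463). That call held in 5 of 15 fits that left out an HT29 array or a Colo-205 day, and without Colo-205 day 10 the difference was 1.07 (adjusted p = 0.228). It was also lost with median scaling (1.61, adjusted p = 0.0734), with no filter on dim probes (adjusted p = 0.0633) and with a trended, robust variance (adjusted p = 0.0552). It was 1.52 with days 1 and 3 only (adjusted p = 0.0042). The ASCL2 effect, 1.12 ± 0.42 higher in HT29, did not pass over all days (adjusted p = 0.176) and did with days 1 and 3 only (1.39, adjusted p = 0.00701).

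In levels, given without a test, Colo-205 exceeded HT29 for the same probe of ASCL2, MYB, EPHB3 and SMOC2. With DMSO, ASCL2 was 8.00 to 10.73 in HT29, against 11.62 in Colo-205 on each day. Likewise MYB was 9.31 to 10.62 in HT29, against 11.88 to 12.13 in Colo-205. SOX9 too was higher in Colo-205, at 10.20 to 11.07 over its 6 arrays against 9.48 to 9.89 in HT29. PROM1 overlapped, at 7.24 to 10.78 in HT29 with DMSO against 7.72 to 8.65 in Colo-205 with DMSO.

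Across the 12 HT29 arrays, ASCL2, PROM1 and MYB followed each other, with Pearson correlations of log2 level of 0.98 for ASCL2 and PROM1, 0.97 for MYB and PROM1 and 0.96 for ASCL2 and MYB. The others followed ASCL2 less closely, with CD44 at 0.70, SOX9 at 0.42, LGR5 at 0.32 and EPHB3 at 0.24. All genes tested were then ranked by the same measure. The gene most like PROM1 was FUT2 (0.99), a fucosyltransferase, and the gene most like ASCL2 was PECR (0.99), a peroxisomal enoyl-CoA reductase. For MYB it was MXD4 (0.98), a MAX-binding partner, and for CD44 the transcription factor ONECUT2 (0.985). EPHB3 was most like the homeobox gene ISL1 (0.95), SOX9 most like the lipid droplet gene PLIN5 (0.92) and LGR5 most like TSR2 (0.89). These points share arrays, treatment and day, so the values are a description.

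Of 20 other genes of the crypt base, 16 were tested in HT29, and averaged over days 9 were higher with PLX4720, 0 lower and 7 did not pass, where 16.9% of all genes were higher and 16% lower. The median of the 16 was 0.30, and BMI1 and HOPX were the 2 below 0, at -0.03 and -0.19. SOX4, an HMG-box factor, was higher by 0.87 ± 0.08 (limma adjusted p = 5.08e-05) and NOTCH1, a receptor of the Notch pathway, by 0.66 ± 0.12 (adjusted p = 0.00313). AXIN2, a Wnt feedback target, and SLC12A2, an ion transporter of crypt cells, were each higher by 0.49 (adjusted p = 0.00137 and 0.00145). In Colo-205, 1 of 16 passed, LRIG1, a negative regulator of ERBB receptors, higher by 1.15 ± 0.17 (adjusted p = 0.0488), where 0.613% of all genes were higher and 0.752% lower. With no filter on dim probes, a detection p under 0.05 or the mean of a gene's probes 0 of the list passed, and in 4 other settings, the 3 other treatments of the background and a trended variance, 2 were higher and 1 lower. Like every Colo-205 call, those of LRIG1, EPHB6 and EFNB2 were absent from the fit without day 3.

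The R-spondin module around LGR5 was detected in part. Of its 8 genes, 5 were tested in HT29, and averaged over days 2 were higher and 0 lower (16.9% and 16% of all genes), RNF43 and ZNRF3, by 0.36 each (limma adjusted p = 0.0138 and 0.0476). Both are ubiquitin ligases that remove Wnt receptors from the cell surface, and both are counted among the 9 crypt base genes above. RNF43 differed by 0.54, 0.71 and -0.17 at days 1, 3 and 8, and ZNRF3 by 0.31, 0.42 and 0.35. Only 1 gene of the list passed with median scaling, with no filter on dim probes, with a detection p under 0.05 and with the replicate block. In Colo-205, 0 of 5 passed, where 0.613% of all genes were higher and 0.752% lower. Among the ephrins and other EPHB receptors, EPHB6 was lower in both lines, by -0.63 ± 0.14 in HT29 (adjusted p = 0.00676) and by -2.69 ± 0.37 in Colo-205 (adjusted p = 0.0401). It was 1 of 4 tested genes of that list in HT29, and of 5 in Colo-205 EFNB2 was lower too, by -1.69 ± 0.20 (adjusted p = 0.0316).

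Of 10 other proteins used to mark colorectal cancer stem cells, all tested in HT29, 3 were higher and 3 lower averaged over days, where 16.9% of all genes were higher and 16% lower. CD24 was higher by 0.99 ± 0.07 (limma adjusted p = 1.46e-05) and ALDH1A1 by 0.73 ± 0.08 (adjusted p = 0.000171), and ALCAM was the other. ITGA6 was lower by -0.85 ± 0.08 (adjusted p = 5e-05) and ABCG2 by -0.47 ± 0.06 (adjusted p = 0.000532), and ITGB1 was the other. In Colo-205, 0 of 9 passed, where 0.613% of all genes were higher and 0.752% lower. Among relatives of MYB and SOX9, 1 of 3 tested passed in HT29, SOX4 again, and 0 of 3 in Colo-205.

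Some markers of other intestinal cell types changed with PLX4720 in HT29, where averaged over days 16.9% of all genes were higher and 16% lower. Goblet markers were higher for 4 of 5 tested averaged over days (TFF3, FCGBP, SPDEF and AGR2), and their summed level ran from 1599 to 7979 with PLX4720, against 1352 to 5172 with DMSO. CLCA1 was on no array. Enteroendocrine markers were higher for 4 of 5 (PAX4, INSM1, SCG5 and NEUROG3), with a summed level of 141 to 818 with PLX4720, against 134 to 183 with DMSO, and CHGB was on no array. Of the 6 named, 0 were above background on every HT29 array. A marker admitted through PLX4720 arrays alone had to differ. Which markers were so admitted was not examined, so their counts are a description. By day, 0, 2 and 4 of the 5 enteroendocrine markers were higher at days 1, 3 and 8, where 11.8%, 8.95% and 7.34% of all genes were. Their medians were -0.01, 0.80 and 1.95. The effect was higher at day 8 than at day 1 for 3 of the 5, and for 7.05% of all genes. These counts by day carry the same limit. Enterocyte markers passed for 0 of 4, at 1894 to 2607 with PLX4720 against 1796 to 2819 with DMSO, and Paneth markers for 0 of 1. Proliferation genes were lower for 4 of 8 (BIRC5, AURKA, MCM2 and MCM5) and higher for 0, at 5507 to 10516 with PLX4720 against 6673 to 11281 with DMSO. Their part in the stem cell marker results was not tested.

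In Colo-205, Paneth markers, products of the cells that neighbour the stem cells, had a summed level of 28141 to 31061 with PLX4720, against 17008 to 22235 with DMSO. The sum adds linear levels, so its brightest genes carry it. In HT29, where LYZ alone of these was on any array, it was 13983 to 16121 with PLX4720, against 11370 to 14203 with DMSO. Of the 3 tested, 0 passed, where 0.613% of all genes were higher and 0.752% lower, and ITLN2 was on no array. At these shares a count of 0 in a short list carries little information. Goblet markers were lower for 1 of 3 (SPDEF) and their summed level was 10598 to 11783 with PLX4720 against 9383 to 19441 with DMSO. Proliferation genes passed for 0 of 8, at 8128 to 15374 with PLX4720 against 11485 to 14425 with DMSO. Their part in the SMOC2 and OLFM4 results was not tested.

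The labelled epithelial origin was borne by 6 of 8 epithelial markers on every array of each line. In Colo-205, KRT8 and KRT18 were lower with PLX4720 (-1.32 and -1.66, limma adjusted p = 0.0353 and 0.0213). These were 2 of 8 lower and 0 higher, where 0.752% of all genes were lower and 0.613% higher, and 5 of the 8 estimates lay above 0. Averaged over days in HT29, 3 of 8 were higher (CDX1, CDX2 and VIL1) and 0 lower, where 16.9% of all genes were higher and 16% lower. Of 4 named immune markers, 2 were on every array of each line and 2, PTPRC and CD3E, on no array. Of 4 endothelial markers, 2 were on at least 1 HT29 array and 0 on any Colo-205 array. Of 6 fibroblast markers, 5 were on at least 1 HT29 array and 4 on at least 1 Colo-205 array, 0 were on every array of either line, and COL3A1 was on no array. The fibroblast sum was 139 to 155 with PLX4720 against 125 to 161 with DMSO in HT29, and 157 to 170 against 137 to 185 in Colo-205. LUM, another fibroblast marker, was higher with PLX4720 in HT29 by 0.73 ± 0.08 (limma adjusted p = 0.000188).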

How the data were processed

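Total RNA from 18 cultures was hybridised to Illumina BeadChips (12 HT29 and 6 Colo-205 arrays), and groups were taken from the labels. The deposited table held, per the file headers, a linear intensity and a detection p-value per probe and array. The authors' way to compute it: not given in the sources used here. The header of 1 intensity column, PLX4720 day 8 replicate 1 of HT29, carried the word mean, and it was used as a single array. A second deposited table held processed intensity values, which served as an alternative (normalization: not given in the sources used here).

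Intensities were corrected with limma 3.58.1 in R 4.3.3 (normexp with the background inferred from detection p-values, offset 16), quantile normalized and taken to log2. The offset pulls fold changes of dim probes towards 0. After 4 probes lacking a value were dropped, 30111 had 1 symbol, 8 several and 17200 none listed. The probe of highest mean stands for a gene. The HT29 fit had 6 group means over 12 arrays, the Colo-205 fit had day as a block, and the fit over 18 arrays had a baseline for each line and day. The analysis steps were tested on simulated data. All 10 markers are named, and up to 4 genes of each other list, those with the lowest adjusted p for the mean of the HT29 days. Cell type lists are given by counts, and LUM, LRIG1, EFNB2 and the remaining members of short counts are named after their values were seen. The markers and the lists were chosen with earlier results of these data known. Alternatives were other background corrections, normalizations, filters and variance settings, and leaving out arrays.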

Additional observations from a re-analysis of the deposited data

Results flagged for a closer look

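The effect of PLX4720 differed between days in HT29 by a test of the difference. For ASCL2 the effect at day 8 minus that at day 1 was -1.82, and minus that at day 3 it was -1.49. For PROM1 these differences were -1.49 and -1.19. The levels with PLX4720 and with DMSO were both higher at day 8 than at day 1 for both genes.

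The effect also differed between the lines, HT29 minus Colo-205, by the same kind of test. It was 1.67 for PROM1, and 1.07 without Colo-205 day 10. That call held with 7 of the 10 alternative settings and in 5 of 15 fits that left out an HT29 array or a Colo-205 day. The -2.80 for SMOC2 restates its Colo-205 gap, since HT29 was at background on all but 1 array. The -3.92 for OLFM4 is a fitted value with no weight as a test, since the gene was above background on Colo-205 PLX4720 arrays alone and had to differ.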

How the results depend on the processing

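Of 269 values of called markers in alternatives other than leaving out arrays, 269 kept their direction and 265 their call. Of 324 in fits that left out an array or a Colo-205 day, 324 kept their direction and 303 their call. Both tallies hold the OLFM4 line difference and the EPHB3 rise with PLX4720, which had to differ. They also hold the SMOC2 line difference, which restates the Colo-205 gap. These 3 kept their call in every fit and so raise the tallies. At day 8 in HT29 the number of markers past the threshold was 2 in place of 1, with ASCL2 added, without background correction, with normexp on intensities alone, on the authors' processed values and with a trended, robust variance. In Colo-205 it was 2 in place of 1 with the same 4 settings, with CD44 added. CD44 also passed at day 3 in HT29 with these 4 settings and with the mean of a gene's probes. The median range of the marker levels was 2.84 without background correction against 3.25. Leaving out 1 array gave 1 to 2 markers for HT29 day 8, 3 to 6 for day 8 against day 1 with PLX4720 and 1 to 2 for the effect at day 8 against day 3. Leaving out 1 Colo-205 day gave 0 to 3.

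Over all genes, 158 passed in Colo-205, against 461 without background correction, 475 with normexp on intensities alone, 464 on the authors' values, 247 with median scaling, 18 with no filter on dim probes and 543 with a trended variance. Without day 1, 3 or 10 it was 38, 0 and 470. For the effect at day 8 against day 3 in HT29 it was 1072, against 1806, 1842 and 1767 with no correction, the authors' values and the trended variance, and down to 441 without PLX4720 day 8 replicate 1. Median scaling moved the share of higher calls there to 30.1%, against 41.9%. Leaving out 1 array took HT29 day 1 from 2862 to as few as 1857 genes, day 3 from 2089 to 833, day 8 from 2023 to 997 (each without PLX4720 replicate 2 of that day), the effect at day 8 against day 1 from 2023 to 1223 (without PLX4720 day 8 replicate 1), and day 8 against day 1 with PLX4720 from 2044 to 891 (without PLX4720 day 8 replicate 2). Without Colo-205 day 3 or day 10 the count for the line difference was 294 and 337, against 544. The cause was not tested.

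Replicates of equal number showed little shared deviation between the treatments (correlations of 0.00203, 0.0655 and 0.0928 at days 1, 3 and 8). These values cannot exclude that the numbers pair the cultures, and the main fit did not pair them. With the replicate block, 3, 3 and 1 markers passed at days 1, 3 and 8, and 2956, 2174 and 2099 genes, against 2862, 2089 and 2023 genes without it. With 2 arrays a group, and 1 in Colo-205, precision is limited, and groups at background carry a fold against a floor only.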
